A study of Mus musculus with 8 samples.

Results

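The albumin gene family and the repressors of its fetal member were followed in liver RNA from 8 libraries. The genes were taken by symbol: Alb, Afp, Afm and Gc, which encode plasma carrier proteins, and Zhx2 and Zbtb20, which encode transcription factors. All 6 were found among the 22155 genes of the deposited count table, and all 6 passed the filter on low counts. Each was read in 4 groups of 2 libraries. The Yap1 knockout group held Yap1 floxed livers given AAV8-iCre, a virus that delivers Cre to hepatocytes, so the other liver cells keep the gene. Yap controls were livers with the same floxed Yap1 that received AAV8 with GFP. The Ctgf knockout group held Ctgf conditional knockout livers, for which the sources used here name no Cre driver, and the Ctgf controls were livers with floxed Ctgf. The labels give no virus for the Ctgf line. All mice were adult, 8 to 10 weeks old and C57BL/6 by label. All of them drank Lieber-DeCarli liquid diet with ethanol at 1% for 2 days and at 2% for 10 days, and all received carbon tetrachloride (CCl4), a toxin of pericentral hepatocytes, by injection (1 µl/g) 2 days before sacrifice.

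Albumin is the main protein of blood plasma and is made by hepatocytes. Alpha-fetoprotein (Afp) is its counterpart in the fetus: the gene is active in fetal liver, is silenced soon after birth, and is known to return at a low level in regenerating liver and strongly in liver tumours. Zhx2 and Zbtb20 are zinc finger proteins needed for the silencing, and mice of the BALB/cJ strain, which carry a defective Zhx2, keep Afp on as adults. Afm encodes afamin, a carrier of vitamin E in human plasma, and Gc encodes the vitamin D binding protein, which also binds actin released from damaged cells.

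In GRCm38, the build named in the submitters' processing notes, Alb (chromosome 5, 90460897 to 90476602), Afp (90490737 to 90508907) and Afm (90518932 to 90553543) lie head to tail on the plus strand. The gap is 14134 bases from Alb to Afp and 10024 bases from Afp to Afm. Gc lies 1002998 bases before Alb on the minus strand (89417522 to 89457898). Zhx2 is on chromosome 15 (57694665 to 57839832, plus strand) and Zbtb20 on chromosome 16 (42875881 to 43642602, plus strand). All 6 are annotated as protein coding.

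The 250 bases before the RefSeq start of Alb, Afp, Afm and Gc (GRCm38.p6) are printed below. They show a motif that these 4 genes share, although the levels of the genes differ widely. Whether further genes of the family hold it was not looked at. The capitals mark the letters GTTAATNAT. The windows cover chr5:90460620-90460869 for Alb, chr5:90490464-90490713 for Afp, chr5:90518699-90518948 for Afm and, on the minus strand, chr5:89457899-89458148 for Gc, each read 5′ to 3′ along its gene.
Alb: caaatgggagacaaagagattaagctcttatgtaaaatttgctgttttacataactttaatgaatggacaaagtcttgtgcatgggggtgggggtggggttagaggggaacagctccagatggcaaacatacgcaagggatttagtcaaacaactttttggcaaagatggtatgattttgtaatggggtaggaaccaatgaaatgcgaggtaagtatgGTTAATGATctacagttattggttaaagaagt
Afp: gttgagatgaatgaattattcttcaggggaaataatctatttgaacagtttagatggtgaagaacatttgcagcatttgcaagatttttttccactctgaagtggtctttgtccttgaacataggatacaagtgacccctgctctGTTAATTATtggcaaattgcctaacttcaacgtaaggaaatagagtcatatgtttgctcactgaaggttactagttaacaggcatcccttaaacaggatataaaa
Afm: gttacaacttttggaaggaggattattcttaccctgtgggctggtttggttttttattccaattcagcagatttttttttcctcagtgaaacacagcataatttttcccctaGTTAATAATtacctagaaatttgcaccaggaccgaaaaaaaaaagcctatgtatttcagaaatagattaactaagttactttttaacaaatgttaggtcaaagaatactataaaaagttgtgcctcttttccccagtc
Gc: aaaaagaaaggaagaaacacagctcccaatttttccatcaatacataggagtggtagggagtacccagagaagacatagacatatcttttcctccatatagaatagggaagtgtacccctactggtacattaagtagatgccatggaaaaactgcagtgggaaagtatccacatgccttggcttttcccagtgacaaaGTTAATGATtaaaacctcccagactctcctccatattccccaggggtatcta
The motif, searched on both strands, was present once in each of the 4 windows, on the strand of the gene. It began 32 bases before the RefSeq start of Alb, 105 before that of Afp, 138 before that of Afm and 52 before that of Gc. The GENCODE starts given above lie 27 bases further along for Alb and 23 for Afp, 17 bases earlier for Afm, and at the same base for Gc, so the distances differ by as much between the annotations. For Alb and Afp no GENCODE transcript holds the stretch right after the RefSeq start. Among the windows of all 32851 RefSeq genes of the same length, 242 (0.737%) held it. The Zbtb20 window, at a RefSeq start 371403 bases inside the GENCODE gene, did not hold these letters, and the promoter of Zhx2 was not used here. The letters TATAAA were found before Afp and Afm and in 12.4% of all windows, and CCAAT on either strand before all 4 genes and in 33.8% of all windows. In Afp the CCAAT match on the other strand shares bases with the end of GTTAATNAT. The motifs were chosen with the sequences in view, and a match of letters is a description.

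Levels are given as CPM, reads scaled to a common library size after TMM adjustment, which sets most genes level between libraries. Alb had the highest count of any gene in all 8 libraries. Scaled by length, as CPM per kb of annotated exon, the median over the 8 libraries was 15527 for Alb (12780 to 29579), 2410 for Gc (2208 to 3868) and 39.3 for Afm (19.4 to 72.9). It was 7.61 for Zbtb20 (6.26 to 10.6), 7.12 for Zhx2 (4.30 to 8.81) and 3.56 for Afp (1.68 to 40.2). The ranges of Alb, Gc and Afm did not meet each other, while those of Zbtb20, Zhx2 and Afp overlapped. The exons of the 21 annotated Zbtb20 transcripts add up to 30.7 kb, so a value per kb understates it if the liver uses short transcripts. Alb, Afp, Afm and Gc together held 3.36% and 4.59% of all reads in Yap1 knockout livers and 4.28% and 5.53% in the Yap controls. They held 3.74% and 7.20% in the Ctgf knockouts and 4.26% and 4.18% in the Ctgf controls. The 95% Wilson interval was narrow at this depth, for example 7.19% to 7.21% in Ctgf knockout 2, and covers counting error only.

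**Figure D1:**
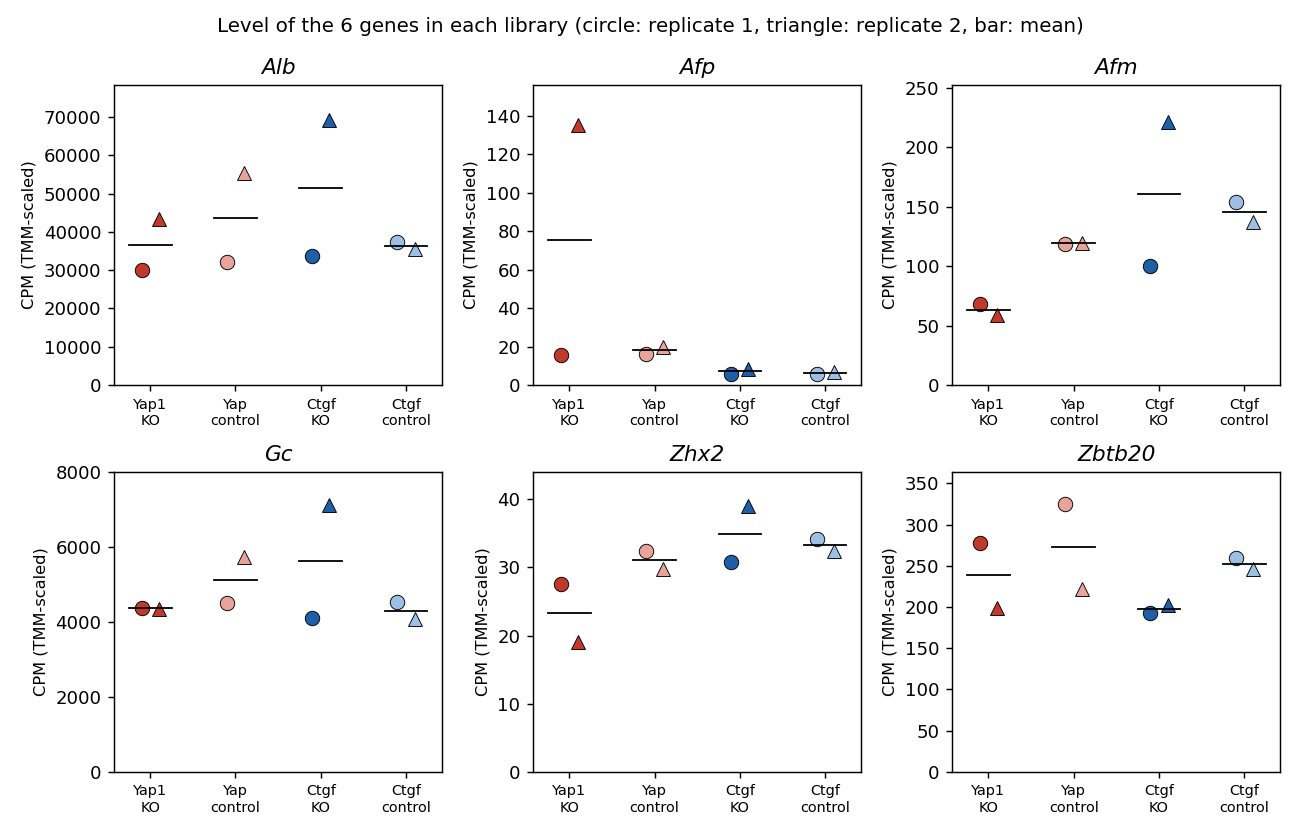
Level of each gene in CPM of the TMM-scaled library (vertical axes, each from 0) in the 8 libraries by group; circles are replicate 1, triangles replicate 2 and bars the mean of the group. Afp stands at 135 CPM in Yap1 knockout replicate 2 and at 5.64 to 19.8 CPM in the other libraries, and Alb, Afm and Gc are highest in Ctgf knockout replicate 2.

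Total counts ran from 26904021 to 33488609 per library, and 3 counts, the floor used for a gene at 0, correspond to 0.083 to 0.123 CPM. The liver label was borne out by hepatocyte markers, whose summed level over 10 genes was 23153 to 40895 CPM. Yap control 2 also held exocrine pancreas transcripts, 14414 CPM summed over 15 markers against 3.46 to 7.82 CPM elsewhere. The deleted gene Yap1 had 31.0 and 32.5 CPM after AAV8-iCre and 107 and 76.1 CPM after AAV8 with GFP. Ctgf stood at 8.02 CPM in Ctgf knockout 1 and at 49.2 CPM in the library labelled Ctgf knockout 2. Ctgf controls had 28.8 and 32.1 CPM, so the Ctgf level of the second of these libraries goes against its label. Whether Ctgf was deleted in it was not tested. No label says whether the replicates were different animals, so the p-values cover only sample-to-sample spread, part or all of it possibly technical. In whole liver, fewer hepatocytes and less RNA per hepatocyte cannot be told apart.

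Loss of hepatocyte Yap1 came with a high Afp level in a single library. Afp had 15.4 and 135 CPM (468 and 3915 reads) in Yap1 knockouts 1 and 2, and 16.3 and 19.8 CPM (591 and 482 reads) in Yap controls 1 and 2. Yap1 knockout 2 stood far above all others, and Yap1 knockout 1 lay just below both controls, so the groups overlapped. The mean was 75.4 ± 84.9 CPM in the knockouts and 18.1 ± 2.47 CPM in Yap controls (SD, n = 2 each). The log2 fold change was 2.06 (SE 0.800, 95% interval 0.21 to 3.91) and did not pass (edgeR adjusted p = 0.334). It was -0.23 without Yap1 knockout 2 and 2.91 without Yap1 knockout 1 (edgeR adjusted p = 0.879 and 0.178). With limma-voom it was 1.35 (adjusted p = 0.491), and with DESeq2 2.04 (adjusted p = 0.0642).

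The gap between the Yap1 knockout libraries was 8.80-fold for Afp, or 3.13 on the log2 scale, where the median size of this gap over 13999 tested genes was 0.19. In that direction 4 genes showed a larger gap. Among 8925 genes with a mean of at least 10 CPM, Afp was also the gene that stood farthest above the highest of the other 7 libraries in Yap1 knockout 2, by 2.77 on the log2 scale. Afp ranked 1146 by count in that library and 7703 in Yap1 knockout 1. These ranks were looked up after the value was seen and carry no test.

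**Figure D2:**
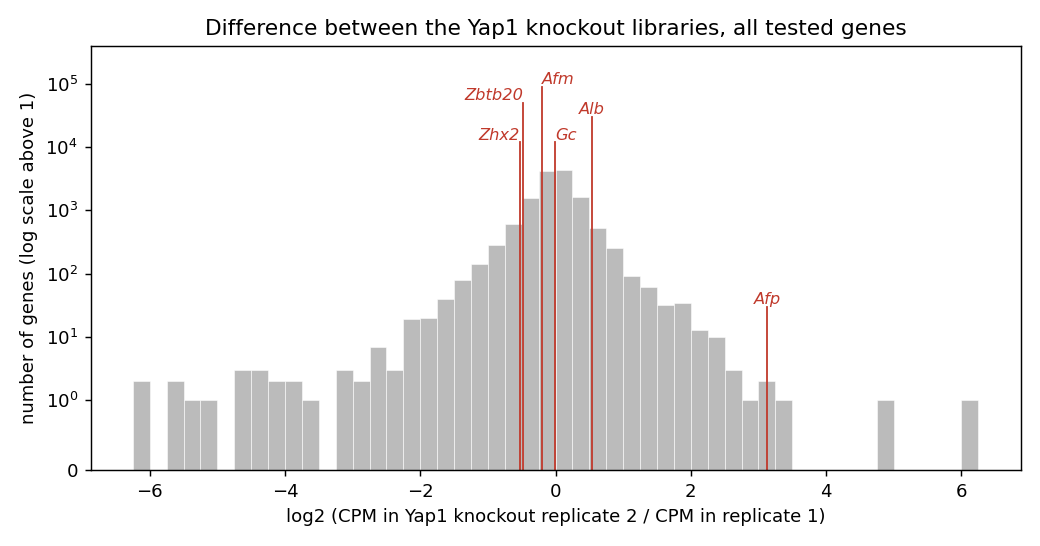
Number of genes (vertical axis, logarithmic above 1) by the log2 ratio of CPM in Yap1 knockout replicate 2 to replicate 1 (horizontal axis), for the 13999 tested genes, with red lines at the 6 genes. Afp lies at 3.13, while the other 5 lie between -0.53 and 0.54.

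The ratio of Afp to Alb reads does not depend on how libraries are scaled. There were 5.15 and 31.2 Afp reads per 10000 Alb reads in Yap1 knockouts 1 and 2, against 5.10 and 3.58 in Yap controls 1 and 2. In the Ctgf line there were 1.69 and 1.23 in the knockouts and 1.51 and 1.93 in the controls. The 95% counting interval was 30.3 to 32.2 for Yap1 knockout 2, and the next highest library, Yap1 knockout 1, had 4.70 to 5.63. Yap1 knockout 2 was again the single high library, and all Yap line values lay above all Ctgf line values.

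Afamin was lower in both Yap1 knockouts. Afm had 68.0 and 58.9 CPM in Yap1 knockouts and 119 and 120 CPM in Yap controls. The groups did not overlap, and each library was close to its group's mean of 63.5 ± 6.43 CPM in knockouts and 119 ± 0.56 CPM in controls (SD, n = 2 each). The log2 fold change was -0.91 (SE 0.341, 95% interval -1.70 to -0.12), which did not pass (edgeR adjusted p = 0.318; DESeq2 adjusted p = 0.154). Without both Yap control 2 and the library labelled Ctgf knockout 2 it was -0.90 and passed (edgeR adjusted p = 0.0236). It stayed between -1.02 and -0.81 under every other setting tried, none of which brought it past the threshold.

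Zhx2 had 27.5 and 19.1 CPM in Yap1 knockout livers and 32.4 and 29.8 CPM in Yap control livers. Both knockouts were below both controls, and the lowest of all 8 values belonged to Yap1 knockout 2, the library with high Afp. The log2 fold change was -0.42 (SE 0.237, 95% interval -0.96 to 0.13; edgeR adjusted p = 0.445). Zbtb20 had 278 and 199 CPM in Yap1 knockout livers and 324 and 222 CPM in Yap control livers, with overlapping groups and a log2 fold change of -0.20 (SE 0.261; edgeR adjusted p = 0.727). Its value in Yap1 knockout 2 was the lowest of the Yap line. In the Ctgf line, the libraries labelled Ctgf knockout 1 and 2 had 192 and 202 CPM. The part of Zbtb20 in the Afp level was not tested. The direction for Zbtb20 turned to 0.078 without Yap control 1 and to 0.029 without Yap1 knockout 2.

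For Alb and Gc, the highly expressed carriers, the log2 fold changes were smaller than their SEs. Alb had 29931 and 43384 CPM in Yap1 knockout livers and 32036 and 55345 CPM in Yap control livers, with overlapping groups (log2 fold change -0.25, SE 0.463, 95% interval -1.32 to 0.82; edgeR adjusted p = 0.806). It was highest in Yap control 2, the library with pancreatic transcripts, and without it the log2 fold change was 0.20. Gc had 4373 and 4355 CPM in Yap1 knockout livers and 4522 and 5740 CPM in Yap control livers. The knockouts were just below the controls, with a log2 fold change of -0.23 (SE 0.328, 95% interval -0.99 to 0.53; edgeR adjusted p = 0.740). The part of the pancreatic transcripts in these values was not tested. With the marker genes removed from the table the log2 fold changes of Afp and Afm were 2.06 and -0.91. That removal takes out only the reads of the marker genes themselves, so it does not test the part of pancreatic RNA in other genes.

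Of the 6 genes, 0 passed in this comparison by edgeR, DESeq2 or limma-voom, where 0.0286% of the 13999 genes tested by edgeR did (0.0214% higher and 0.00714% lower). At an unadjusted p under 0.05 there were 2 of the 6, Afp and Afm, against 13.8% of all genes. The knockouts lay below the controls without overlap for 3 of the 6 (Afm, Gc and Zhx2), where 20.8% of all genes did so, and above them for 0 of the 6, where 23.6% of all genes did. The median log2 fold change of the 6 was -0.24 and that of all tested genes was -0.0046. Beside these values, neutrophil markers summed to 891 and 427 CPM after loss of Yap1 against 116 and 233 CPM in its controls (6 of 8 with an unadjusted p under 0.05 and 0 past the test by edgeR), and were thus lower in Yap1 knockout 2 than in Yap1 knockout 1. Their part in the results was not tested.

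**Figure D3:**
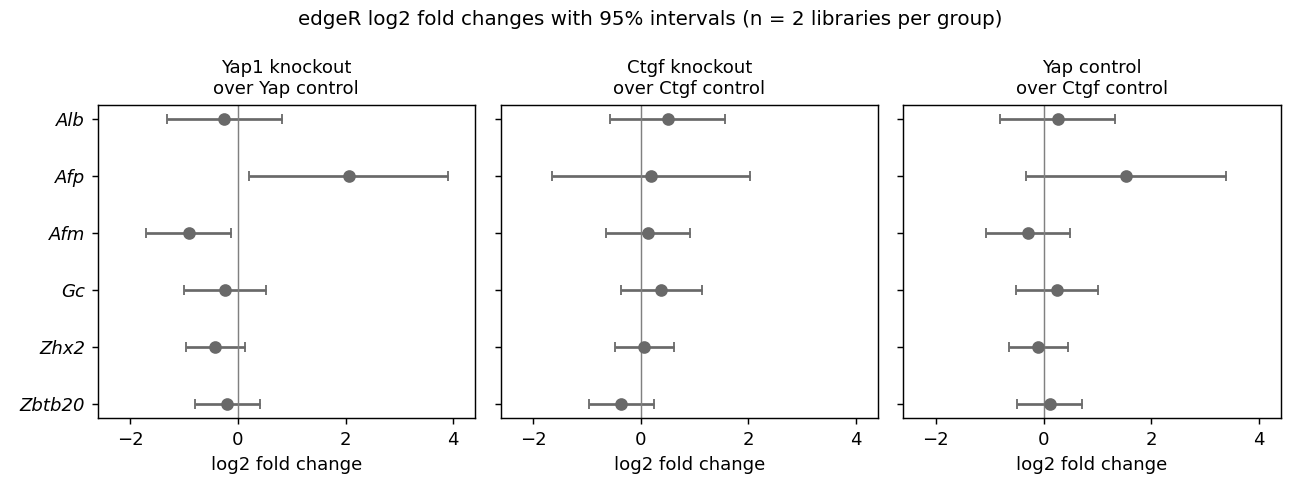
edgeR log2 fold changes (horizontal axes; points) with 95% intervals (bars) of the 6 genes in 3 comparisons, n = 2 libraries per group. In the Yap1 comparison the intervals of Afp (0.21 to 3.91) and Afm (-1.70 to -0.12) leave out 0 before adjustment over all genes, and all intervals of the other comparisons include 0.

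In the Ctgf comparison the pattern was set by the library labelled Ctgf knockout 2, in which the carriers were high. Alb had 33585 and 69274 CPM in the pair labelled Ctgf knockout and 37334 and 35393 CPM in Ctgf controls. Gc had 4110 and 7137 CPM in the pair labelled Ctgf knockout and 4536 and 4075 CPM in Ctgf controls. Afm had 100 and 222 CPM in the pair labelled Ctgf knockout and 154 and 137 CPM in Ctgf controls. For Alb and Afm replicate 1 was below both controls and replicate 2 above both, and for Gc replicate 1 lay between them. The gap between the libraries labelled knockout was 2.06-fold for Alb, 1.74-fold for Gc and 2.21-fold for Afm.

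The log2 fold changes were 0.50 (SE 0.463) for Alb, 0.39 (SE 0.328) for Gc and 0.14 (SE 0.338) for Afm, and none passed (edgeR adjusted p = 1). They were -0.11, -0.067 and -0.54 once the second library, whose Ctgf level goes against its label, was left out (edgeR adjusted p = 1 for each). Afp was low throughout, at 5.68 and 8.55 CPM in the pair labelled Ctgf knockout and 5.64 and 6.82 CPM in Ctgf controls (log2 fold change 0.19, SE 0.795, edgeR adjusted p = 1). With that library left out it was -0.14.

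Of the repressors, Zbtb20 was lower in both libraries labelled Ctgf knockout, with 192 and 202 CPM against 259 and 246 CPM in Ctgf controls. The means were 197 ± 6.70 CPM in the pair labelled Ctgf knockout and 253 ± 9.31 CPM in Ctgf controls (SD, n = 2 each), without overlap. The log2 fold change was -0.36 (SE 0.262; edgeR adjusted p = 1). It kept its direction in all 20 alternative settings, from -0.46 to -0.31. Zhx2 had 30.8 and 39.1 CPM in the pair labelled Ctgf knockout and 34.1 and 32.4 CPM in Ctgf controls, with overlapping groups (log2 fold change 0.071, SE 0.236, edgeR adjusted p = 1).

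By edgeR 0 of the 6 passed in the Ctgf comparison, as did 0% of all genes; 0 of the 6 and 1.98% of all genes had an unadjusted p under 0.05. DESeq2 and limma-voom also called 0 of the 6. Of the 6 genes, 1 (Zbtb20) was below the controls without overlap, where 16.8% of all genes were. The difference between the Yap1 and the Ctgf effect was not past the threshold for any of the 6 (0% of all genes passed by edgeR). For 0 of the 6 was the unadjusted p under 0.05, where 8.87% of all genes had one. The difference was largest for Afp at 1.87 (SE 1.12, edgeR adjusted p = 0.625) and for Afm at -1.05 (SE 0.480, edgeR adjusted p = 0.570). Both effects were fitted with the same spread.

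Between the lines, Afp was the member that stood apart. It was higher in both Yap controls, 16.3 and 19.8 CPM, than in both Ctgf controls, 5.64 and 6.82 CPM, a log2 fold change of 1.54 (SE 0.801, edgeR adjusted p = 0.294). By edgeR 0 of the 6 passed between the controls, where 2.38% of all genes did (1.27% higher, 1.11% lower), and 0 of the 6 had an unadjusted p under 0.05, where 22.5% of all genes did. Without overlap, Afp alone of the 6 was higher in the Yap controls, as were 26.1% of all genes, and Afm and Zhx2 were lower, as were 27% of all genes. Over all libraries, Afp ran from 15.4 to 135 CPM in the Yap line and from 5.64 to 8.55 CPM in the Ctgf line, so 4 libraries lay above 4, as they did for 11.5% of all genes. Both Yap groups, averaged on the log2 scale, were set against both Ctgf groups averaged likewise, a comparison added after seeing the data. The log2 fold change of Afp was 2.47 (SE 0.581), or 5.54-fold, which passed (edgeR adjusted p = 0.0256). In that comparison 17.6% of all genes passed, 10.1% in the direction of Afp.

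The line difference in Afp did not rest on Yap1 knockout 2 alone: without that library it was 1.32 (SE 0.230, edgeR adjusted p = 0.0368). It no longer passed without Ctgf control 1 or 2 or Ctgf knockout 1 or 2, when it was 2.34 to 2.63 (edgeR adjusted p = 0.0737 to 0.125). Afm went the other way by -0.82 (SE 0.241, edgeR adjusted p = 0.0529), with overlapping lines, and passed without Ctgf knockout 1 (-1.05, edgeR adjusted p = 0.0168). No member was lower in the Yap line in all 4 libraries against 4, as 11.2% of all genes were. The log2 differences of the other 4 genes were between -0.34 and 0.19, and none of these passed.

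The lines differed in much else. Proliferation markers summed to 32.8 to 93.9 CPM in the Yap line and 3.58 to 7.82 CPM in the Ctgf line, and 8 of 8 were higher in the Yap controls by edgeR, where 1.27% of all genes were. Stellate cell and fibroblast markers summed to 868 to 1070 CPM in the Yap line and 335 to 380 CPM in the Ctgf line. Within the Yap line the proliferation markers summed to 32.8 and 55.8 CPM in Yap1 knockouts 1 and 2 and 93.9 and 42.8 CPM in Yap controls 1 and 2. The sum was thus higher in Yap1 knockout 2 than in Yap1 knockout 1, and highest in Yap control 1. The part of these markers in the Afp level was not tested. The floxed allele, the virus and any other difference between the lines cannot be told apart.

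Set beside Afp, its repressors ran as follows. In the Yap line Afp was highest in the library with the lowest Zhx2 (19.1 CPM), while in the Ctgf line it was highest, at 8.55 CPM, in the library with the highest Zhx2 (39.1 CPM). With the lines apart in Afp and 4 libraries in each, the relation of the genes across libraries cannot be tested. Zbtb20 had 10.1 and 10.4 reads per Zhx2 read in Yap1 knockout livers and 10.0 and 7.43 in the Yap controls. It had 6.24 and 5.17 in the pair labelled Ctgf knockout and 7.59 and 7.59 in the Ctgf controls. That ratio was nearly equal in the Yap1 knockouts, whose Afp levels were far apart, but it does not show the amount of either repressor. In Yap1 knockouts 1 and 2, Zhx2 had 27.5 and 19.1 CPM and Zbtb20 had 278 and 199 CPM. Both repressors were thus lower in Yap1 knockout 2.

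Other genes were ranked by how closely their log2 CPM followed each member over the 8 libraries, among 8925 genes, as a description in which library effects are shared. Afp was followed most closely by Sulf2 (Pearson r = 0.97), Acot12 (0.96) and Cmpk2 (0.95), all highest in Yap1 knockout 2. Afm was followed by Fbxo9, Psip1 and Rida (0.98 each), and Zhx2 by Abcc6 (0.98) and Hnrnph3 (0.97). Rida, for example, had 81.5 and 62.9 CPM in Yap1 knockout livers against 181 and 143 CPM in Yap control livers. It had 99.8 and 323 CPM in the pair labelled Ctgf knockout against 189 and 164 CPM in Ctgf controls. Alb was followed by Dyrk1b (0.96), Atp5sl (0.95) and Mocs1 (0.94), Gc by Lgals9 (0.96), D17Wsu92e (0.95) and Pcgf2 (0.95), and Zbtb20 by Top1 (0.90), Lmbrd1 (0.89) and Adgre5 (0.88).

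Factors known to switch on the albumin and Afp promoters were measured as a group of 16, and 0 passed in either knockout comparison by edgeR. In the Yap1 comparison 4 had an unadjusted p under 0.05, where 13.8% of all genes had one. Without overlap 7 were below the controls and 0 above, where 20.8% of all genes were below and 23.6% above, and the median log2 fold change was -0.15. Cebpa, a hepatocyte bZIP factor that binds both promoters, had 108 and 75.5 CPM in Yap1 knockout livers and 170 and 189 CPM in Yap control livers (log2 fold change -0.96, SE 0.231, edgeR adjusted p = 0.173). Hhex, a homeobox factor of liver development, had 55.4 and 54.7 CPM in Yap1 knockout livers against 97.8 and 105 CPM in Yap control livers (log2 fold change -0.88, edgeR adjusted p = 0.196). In the Ctgf comparison the median was 0.00 and Cebpa had the smallest p, with a log2 fold change of 0.41 (edgeR adjusted p = 1).

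Genes listed here as targets of Zhx2 in mouse liver did not share a direction, and whether Zhx2 represses each of them was not tested. Of 4 measured, 3 had log2 fold changes below 0 and 1 above 0 in the Yap1 comparison, and 0 passed by edgeR. Gpc3, a cell-surface glypican of fetal liver, had 2.50 and 2.15 CPM in Yap1 knockout livers and 1.30 and 1.32 CPM in Yap control livers (log2 fold change 0.83, edgeR adjusted p = 0.365). The lipase gene Lpl had 95.2 and 70.1 CPM in Yap1 knockout livers and 165 and 232 CPM in Yap control livers (log2 fold change -1.27, edgeR adjusted p = 0.364). Neither gene was higher in Yap1 knockout 2 than in Yap1 knockout 1. Elovl3, a fatty acid elongase, was higher there, with 8.00 and 20.4 CPM in Yap1 knockouts 1 and 2, but lay between Yap controls 1 and 2 (10.2 and 38.4 CPM) in the second. The remaining gene, Cyp2a4, was also higher in Yap1 knockout 2 at low counts, with 0.165 and 0.554 CPM (5 and 16 reads) in Yap1 knockouts 1 and 2. Yap controls 1 and 2 had 0.083 and 2.35 CPM of it. In the Ctgf comparison the smallest p belonged to Gpc3, with 0.96 and 0.70 CPM in the pair labelled Ctgf knockout and 1.94 and 1.88 CPM in Ctgf controls (log2 fold change -1.20, SE 0.371, edgeR adjusted p = 1). Cyp2a4, a steroid hydroxylase, came next with 10.1 and 9.10 CPM in the pair labelled Ctgf knockout and 4.56 and 2.53 CPM in Ctgf controls (log2 fold change 1.44, edgeR adjusted p = 1).

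Of 10 other genes of fetal liver, 5 did not pass the low-count filter, Dlk1, Lin28b and Sall4 among them. Of the 5 tested, 0 passed in either comparison by edgeR. Plagl1, an imprinted zinc finger gene, had 18.8 and 11.5 CPM in Yap1 knockout livers and 4.65 and 1.36 CPM in Yap control livers (log2 fold change 2.32, SE 0.584, edgeR adjusted p = 0.189). It was higher in Yap1 knockout 1, where Afp was not raised. Hmga2, a chromatin protein of fetal tissues, had the next smallest p (log2 fold change 1.00, edgeR adjusted p = 0.508). Over Ctgf controls the smallest p-values were those of Igf2bp2, an RNA-binding protein, and the imprinted gene Peg3, with log2 fold changes of -0.33 and -0.48 (edgeR adjusted p = 1 for both). The paralogs of Zhx2, Zhx1 and Zhx3, had log2 fold changes of 0.21 and -0.41 in the Yap1 comparison (edgeR adjusted p = 0.712 and 0.427).

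**Figure D4:**
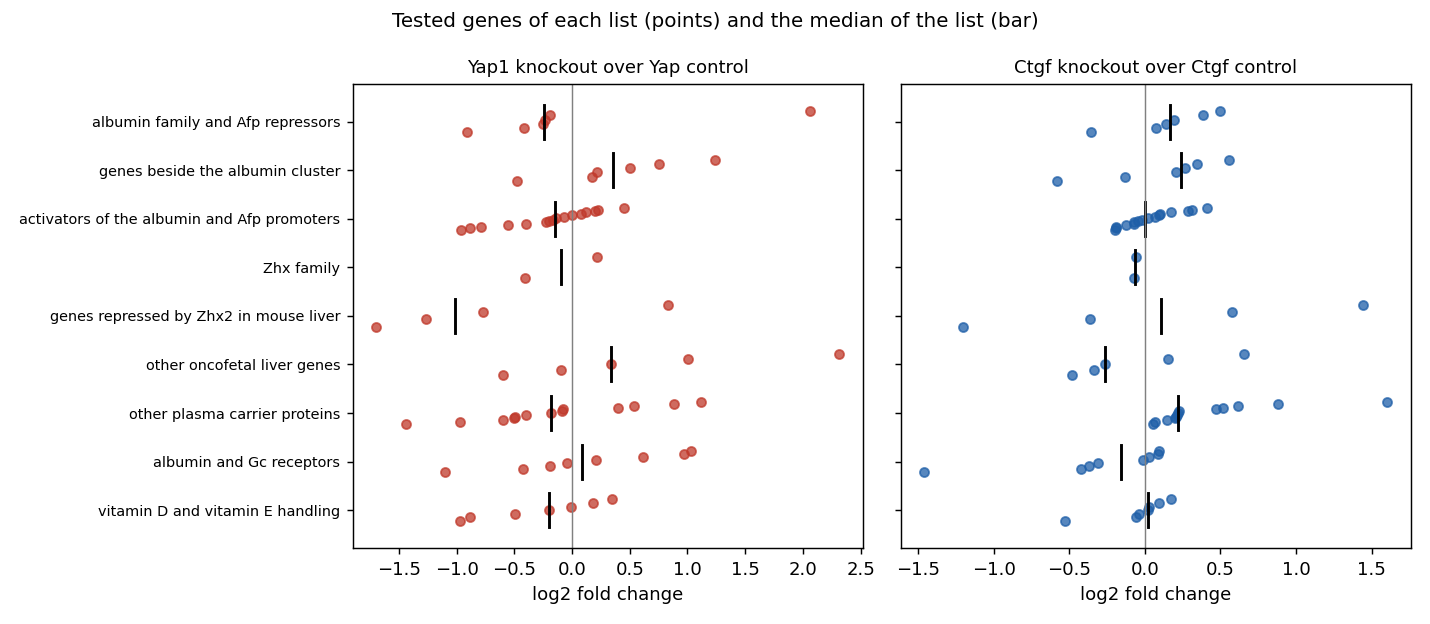
edgeR log2 fold change (horizontal axes) of each tested gene (points) and the median (bars) of each gene list (vertical axis) for Yap1 knockout over Yap control, left, and Ctgf knockout over Ctgf control, right. Afp, at 2.06, is the rightmost point of its list on the left, and 13 of 13 other plasma carriers lie above 0 on the right.

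Other plasma carriers, also made by hepatocytes, had log2 fold changes in the direction of Alb in the Ctgf comparison. Not all were higher in replicate 2 of the pair labelled Ctgf knockout: Orm1 had 2592 and 2310 CPM there, against 2349 and 1928 CPM in Ctgf controls. In the Ctgf comparison 13 of 13 tested had log2 fold changes above 0 (median 0.22, against 0.0064 over all genes), with 0 past the test and 0 at an unadjusted p under 0.05 by edgeR. Without overlap 2 of them were higher, where 15.5% of all genes were. The thyroxine carrier gene Serpina7 had 276 and 1263 CPM in the pair labelled Ctgf knockout and 313 and 194 CPM in Ctgf controls, so it too was high in replicate 2. The corticosteroid carrier gene Serpina6 followed with 5.32 and 14.3 CPM in the pair labelled Ctgf knockout and 6.41 and 4.27 CPM in Ctgf controls (log2 fold change 0.88, edgeR adjusted p = 1). In the Yap1 comparison 4 were above and 9 below 0 (median -0.18), and 0 passed by edgeR. The copper carrier gene Cp had 7285 and 6980 CPM in Yap1 knockout livers and 3245 and 3317 CPM in Yap control livers (log2 fold change 1.12, SE 0.334, edgeR adjusted p = 0.238). Ttr, a retinol and thyroid hormone carrier gene, had 1403 and 1946 CPM in Yap1 knockout livers and 2820 and 3734 CPM in Yap control livers (log2 fold change -0.97, edgeR adjusted p = 0.343).

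Among 8 receptors and partners for albumin and the vitamin D binding protein, 0 passed in either comparison by edgeR. Fcgrt, the receptor that returns albumin to the blood, had 70.7 and 70.0 CPM in Yap1 knockout livers and 97.1 and 205 CPM in Yap control livers (log2 fold change -1.10, SE 0.358, edgeR adjusted p = 0.264). Stab2, a scavenger receptor of sinusoidal endothelium, had 144 and 135 CPM in Yap1 knockout livers and 120 and 62.1 CPM in Yap control livers (log2 fold change 0.62, edgeR adjusted p = 0.400). For the Ctgf knockout the smallest p-values belonged to Cubn and the endocytic adaptor gene Dab2, at log2 fold changes of -1.46 and -0.31 (edgeR adjusted p = 1 for both). The endocytic receptors Lrp2 and Cubn, which act mainly in kidney, were at 0.22 to 1.97 and 0.08 to 3.10 CPM. Of 7 tested genes for handling vitamins D and E, 0 passed in either comparison by edgeR. Sec14l2, a tocopherol-binding protein, had 131 and 126 CPM in Yap1 knockout livers and 228 and 274 CPM in Yap control livers (log2 fold change -0.97, SE 0.204, edgeR adjusted p = 0.140), in afamin's direction. Vdr, the vitamin D receptor, had 2.70 and 1.38 CPM in Yap1 knockout livers and 4.42 and 3.13 CPM in Yap control livers (log2 fold change -0.89, edgeR adjusted p = 0.442). Over Ctgf controls, the smallest were those of Vdr and to Cyp27a1, a vitamin D and sterol hydroxylase, at log2 fold changes of -0.53 and 0.18 (edgeR adjusted p = 1 for both).

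Of the 6 tested genes listed around the albumin cluster on chromosome 5, not all of them direct neighbours, 0 passed by edgeR in either comparison. Ankrd17, the neighbour before Alb, had 166 and 186 CPM in Yap1 knockout livers and 143 and 106 CPM in Yap control livers (log2 fold change 0.50, edgeR adjusted p = 0.371). Rassf6, on the far side of Afm, had 12.8 and 14.6 CPM in Yap1 knockout livers and 12.1 and 11.6 CPM in Yap control livers (log2 fold change 0.21, edgeR adjusted p = 0.681). Cxcl5, a neutrophil chemokine gene, had 1.09 and 0.52 CPM in Yap1 knockout livers and 0.28 and 0.41 CPM in Yap control livers (log2 fold change 1.23, edgeR adjusted p = 0.405). Over Ctgf controls the smallest p-values were those of Rassf6 and the mitochondrial assembly gene Cox18, at log2 fold changes of 0.34 and 0.27 (edgeR adjusted p = 1 for both). None of these genes had a high value in Yap1 knockout 2 of the size seen for Afp.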

How the data were processed

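Whole-liver RNA of 8 mouse libraries was sequenced. The authors deposited raw read counts per gene symbol. The submitters' processing notes name the builds mm10 and GRCm38 (1 assembly), HTSeq 0.6.1, STAR 2.6.0a and bcl2fastq 2.20.0.422. Annotation and strand setting: not given in the sources used here. Genes that overlap others are therefore uncertain. Of 22155 genes, 4534 had no count.

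The counts were tested with edgeR 4.0.16 (R 4.3.3): TMM scaling, edgeR's low-count filter (13999 genes kept), a quasi-likelihood F test in a single fit of all 4 groups with 4 residual degrees of freedom, and Benjamini-Hochberg adjustment over all genes tested (threshold 0.05). SEs come from the fold change and F statistic. The fit was tested on counts simulated from a common baseline for all libraries. The simulated counts had no line difference and no outlying library, so that test does not cover such features of these data. DESeq2 1.42.0, limma-voom (limma 3.58.1), other scalings and filters, fewer libraries, a replicate block and a table without pancreas genes were alternatives. Totals of 26904021 to 33488609 reads set the counting precision of the read shares and of the Afp to Alb ratios. The intervals of these shares and ratios, and the floors, cover only counting error, as no molecular identifiers mark the reads. The intervals of the log2 fold changes were built from the SEs, so they also include the spread between libraries. Positions and exon lengths are GENCODE M21 (GRCm38), promoters RefSeq (GRCm38.p6; 5 of 6 genes matched).

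The members, the lists and the rule for named genes (the 6 members, the 2 smallest p per list, genes that define a cell type, and the 3 genes most like each member) were chosen with earlier results of these data known. Some genes that the rule names are not reported here. Beyond it, Rassf6 and Cyp2a4 in the Yap1 comparison, Orm1, Elovl3, Lrp2, Dlk1, Lin28b and Sall4 were named after their values were seen.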

Additional observations from a re-analysis of the deposited data

How the results depend on the processing

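For the 6 genes, every edgeR log2 fold change was recomputed in 20 settings (19 for the difference between effects, 9 for the lines). No member passed in a knockout comparison under any of them except Afm in the Yap1 comparison, without Yap control 2 and the library labelled Ctgf knockout 2 together (-0.90, edgeR adjusted p = 0.0236), which makes 1 member past the threshold there. In that setting log2 changes of 0.19 (Alb, Yap1 comparison), -0.11 (Alb), -0.067 (Gc), -0.54 (Afm), -0.14 (Afp) and -0.11 (Zhx2, all Ctgf comparison), and -0.19 (Alb, Yap over Ctgf controls) were of opposite sign to those reported. So were 0.31 (Alb), 0.016 (Gc) and -0.051 (Zbtb20) for the difference between effects and 0.074 (Gc) between the lines, where 2 members passed, Afp and Afm. Library totals alone turned Zhx2 to -0.033 in the Ctgf comparison, and upper quartile factors turned it to 0.040 between the controls.

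With each library left out in turn, the Yap1 comparison gave -0.62 to 0.20 for Alb, -0.23 to 2.91 for Afp, -1.01 to -0.81 for Afm, -0.42 to -0.05 for Gc, -0.70 to -0.17 for Zhx2 and -0.45 to 0.078 for Zbtb20. The Ctgf comparison gave -0.11 to 0.94 for Alb, -0.14 to 0.47 for Afp, -0.54 to 0.62 for Afm, -0.067 to 0.74 for Gc and -0.11 to 0.25 for Zhx2. The difference between effects gave -0.42 to 2.72 for Afp and -0.093 to 0.43 for Zbtb20. Yap over Ctgf controls gave -0.19 to 0.63 for Alb and -0.17 to 0.36 for Zbtb20, and the lines gave -0.34 to 0.19 for Alb and -0.23 to 0.16 for Gc, with 0 to 1 members past the threshold. The cause of these turns was not tested, beyond the removal of the named library.

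The number of genes past the threshold was unstable. In the Yap1 comparison it was 4, against 514 with DESeq2, 37 without a filter, 0 when the Yap line was fitted by itself, 938 without both libraries named above, and 0 to 3728 with single libraries left out. In the Ctgf comparison it was 0, against 4 with DESeq2 and 1 with limma-voom. For the difference it was 0, against 142 with DESeq2, 2 without a filter, 143 without both libraries named above, and 0 to 2092 with single libraries left out. Between the controls it was 333, against 1527 with DESeq2, 182 with library totals, 0 with the control libraries alone, 219 with the replicate block, 4056 without both libraries named above, and 0 to 3699 with single libraries left out.

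The replicate numbers are shared between groups, but the labels do not tie them to a litter or day. The title of each Yap control does name it as the control for a numbered Yap knockout. The replicate block was a single term shared by all groups of both lines, so it did not model such pairs. Deviations of same-numbered libraries from their group means correlated at 0.072 in the Yap and 0.068 in the Ctgf line. With the replicate block, Afp had 1.66 and Afm -0.90 in the Yap1 comparison (edgeR adjusted p = 0.369 and 0.343), and no member crossed the threshold. Where a library was left out, its lone partner was assumed to vary like the other groups.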

Other observations

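Besides Afp, 4 genes with a mean of at least 10 CPM stood more than 1 log2 unit above every other library in Yap1 knockout 2, a list looked up after the high Afp value was seen and given with no test. They were Cmpk2, an interferon-induced mitochondrial kinase, by 1.49, Mrap, which carries the ACTH receptor to the cell surface, by 1.39, Mfsd2a, a lysophospholipid transporter, by 1.06, and Itih5, an inter-alpha-trypsin inhibitor heavy chain, by 1.05. The interferon-induced gene Isg15 followed at 1.00. Afp exceeded them all, at 2.77.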
